A study of Mus musculus with 8 samples.

Results

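The CXC chemokine ligands were followed in contused and control mouse spinal cord as 10 genes: Cxcl1, Cxcl2, Cxcl3, Cxcl5, Cxcl9, Cxcl10, Cxcl12, Cxcl13, Cxcl14 and Cxcl16. They were chosen by name, as every mRNA probe of the array with a RefSeq NM_ accession whose symbol was one of these, which gave 22 probes among the 47074 mRNA probes and 10 genes among 20476. The study used 8 arrays, 4 of control cord and 4 of cord with a contusion, which is a bruise made by a blunt impact. The mice were female and 8 weeks old, with 1 mouse per array, and the tissue was spinal segments T9 and T10. Strain was not given in the sources used here. Controls are sham-operated in the design text but normal cord in the sample descriptions. Titles place all contusion samples at 3 days after injury, while the descriptions of contusion replicates 1, 2, 3 and 4 give 3, 4, 5 and 6 days. The 10 genes hold most, not all, of the mouse family, and 5 further CXC ligands were kept as a comparison list.

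CXC chemokines are small proteins named for a pair of conserved cysteines with a single residue between them, and they signal through G protein-coupled receptors on leukocytes and on cells of the tissue. The ELR ligands Cxcl1, Cxcl2, Cxcl3 and Cxcl5 act on Cxcr2 and draw neutrophils, and their genes are classic targets of NF-kappa-B downstream of interleukin 1, tumour necrosis factor and interleukin 17. Cxcl9 and Cxcl10 are induced by interferons and act on Cxcr3 of T and NK cells. Cxcl12 acts on Cxcr4 and Ackr3, Cxcl13 acts on Cxcr5 of B cells, Cxcl14 is made constitutively by many epithelia and some neurons, and Cxcl16 is made as a membrane protein that proteases shed and that Cxcr6 binds. In an injured cord, astrocytes, microglia, endothelium and invading myeloid cells are all known sources of such ligands.

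On the genome, 7 of the 10 genes lie on chromosome 5 (RefSeq table of GRCm38.p6): Cxcl5 at chr5:90759298-90761625, Cxcl3 at chr5:90786101-90788093, Cxcl1 at chr5:90891245-90893121, Cxcl2 at chr5:90903899-90905938, Cxcl9 at chr5:92321331-92328079, Cxcl10 at chr5:92346638-92348889 and Cxcl13 at chr5:95956939-95961068. Cxcl12 lies at chr6:117168535-117181368, Cxcl16 at chr11:70454389-70459984 and Cxcl14 at chr13:56288643-56296811. The RefSeq promoter table held 8 of the 10 genes, all but Cxcl5 and Cxcl16. The 250 bases before the start site of 4 of them are shown because 3 of the ligands called higher below share a motif there and Cxcl10 carries both an interferon and an NF-kappa-B motif. Capitals mark matches on either strand to a kappa-B motif, GGGANNTNCC, and to the interferon-stimulated response element, GAAANNGAAA, where N is any base.
Cxcl1, chr5:90890995-90891244, plus strand: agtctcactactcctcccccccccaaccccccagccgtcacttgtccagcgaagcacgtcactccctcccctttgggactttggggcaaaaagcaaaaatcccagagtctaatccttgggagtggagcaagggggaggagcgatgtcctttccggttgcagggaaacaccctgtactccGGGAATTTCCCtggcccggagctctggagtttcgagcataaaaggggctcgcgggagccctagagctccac
Cxcl2, chr5:90903649-90903898, plus strand: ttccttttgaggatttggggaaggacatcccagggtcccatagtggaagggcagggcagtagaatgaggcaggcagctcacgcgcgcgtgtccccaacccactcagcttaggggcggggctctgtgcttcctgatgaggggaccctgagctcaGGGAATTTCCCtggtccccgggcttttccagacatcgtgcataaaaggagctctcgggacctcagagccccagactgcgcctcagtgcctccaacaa
Cxcl3, chr5:90785851-90786100, plus strand: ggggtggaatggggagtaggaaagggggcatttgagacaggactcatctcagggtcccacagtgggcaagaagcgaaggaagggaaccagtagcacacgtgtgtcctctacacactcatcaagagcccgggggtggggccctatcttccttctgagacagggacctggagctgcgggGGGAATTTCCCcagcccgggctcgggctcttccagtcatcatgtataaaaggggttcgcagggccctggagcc
Cxcl10, chr5:92348890-92349139, minus strand: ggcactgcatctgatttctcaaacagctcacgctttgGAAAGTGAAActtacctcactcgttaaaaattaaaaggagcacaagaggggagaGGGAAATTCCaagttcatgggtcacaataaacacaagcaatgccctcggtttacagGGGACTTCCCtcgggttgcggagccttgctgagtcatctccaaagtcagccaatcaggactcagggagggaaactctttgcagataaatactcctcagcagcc

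The kappa-B motif was found before the start of 4 of the 8 genes, Cxcl1, Cxcl2, Cxcl3 and Cxcl10, and in 3.33% of 32851 promoter windows of the same length. Cxcl1, Cxcl2 and Cxcl3 held the same 10 letters, GGGAATTTCC, beginning 71, 97 and 73 bases before the start, each overlapping by all but 1 base a second match on the opposite strand. Those letters, taken from the Cxcl1 promoter itself, were in 0.0852% of all windows. The longest run shared by the windows of Cxcl1 and Cxcl2 was 14 bases, and 11 bases for Cxcl1 and Cxcl3 and for Cxcl2 and Cxcl3. Cxcl10 held 2 kappa-B matches, at 159 and 103 bases, and an interferon-stimulated response element at 213 bases. Cxcl14 held such an element too, GAAACAGAAA at 172 bases before the start in the table, against 2.98% of all windows. The Cxcl14 window, chr13:56296552-56296801, lies within the gene positions given above. The gamma-activated sequence, TTCNNNGAA, was in Cxcl14 and in 7.02% of windows, and TATAAA in Cxcl3, Cxcl9 and Cxcl13 and in 12.4%. These matches describe letters in the windows only.

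The question of the comparison was which ligands differed between contused and control cord. A level here is the log2 processed intensity of a probe minus the 75th percentile of its array, so 0 is that percentile, and a difference is contusion minus control on the log2 scale with its standard error from limma, 4 arrays per group. A gene was called where limma's p, adjusted by Benjamini-Hochberg over 89134 features, was under 0.05. Of the 9 genes that could be tested, 5 were higher after contusion: the neutrophil attractants Cxcl1, Cxcl2 and Cxcl3, the B cell attractant Cxcl13, and the membrane-bound Cxcl16. Cxcl14 was slightly lower, Cxcl5, Cxcl10 and Cxcl12 were not called, and Cxcl9 was at background on every array. Of all 18198 mRNAs tested, 51.1% were called, 25.8% higher and 25.3% lower, so a call alone does not set a ligand apart from other genes. The median difference was 0.97 over the 9 ligands and -0.0014 over all mRNAs. In 6 of the 9 genes the 4 contusion levels did not overlap the 4 control levels, 5 of them higher and 1 lower, against 51.7% of all mRNAs in either direction and 26.6% with contusion higher. The samples are bulk tissue, so more cells of a type and more RNA per cell cannot be told apart.

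Probes well above background made up 72.9% to 75.4% of an array, no spot was saturated, and the median standard error of an mRNA difference was 0.0945. Control replicates 2, 3 and 4 and contusion replicate 1 were on one slide, and control replicate 1 and contusion replicates 2, 3 and 4 on the other, so that among contusion samples the slide and the described day cannot be told apart. Neuronal, glial and myelin markers were present on every array, as the labelled tissue should have. Some arrays stood apart in markers of other tissues. The mean level of 9 skeletal muscle markers was 4.00 and 2.22 in contusion replicates 1 and 2, and from -1.16 to 0.87 in the other 6 arrays. The mean level of 12 neutrophil markers was 1.29 and 1.45 in control replicates 1 and 3, against -0.86 and 0.06 in control replicates 2 and 4. The 5 higher ligands were called both without contusion replicates 1 and 2 and without control replicates 1 and 3, while Cxcl14 was not called without contusion replicates 1 and 2 (adjusted p = 0.12).

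**Figure D1:**
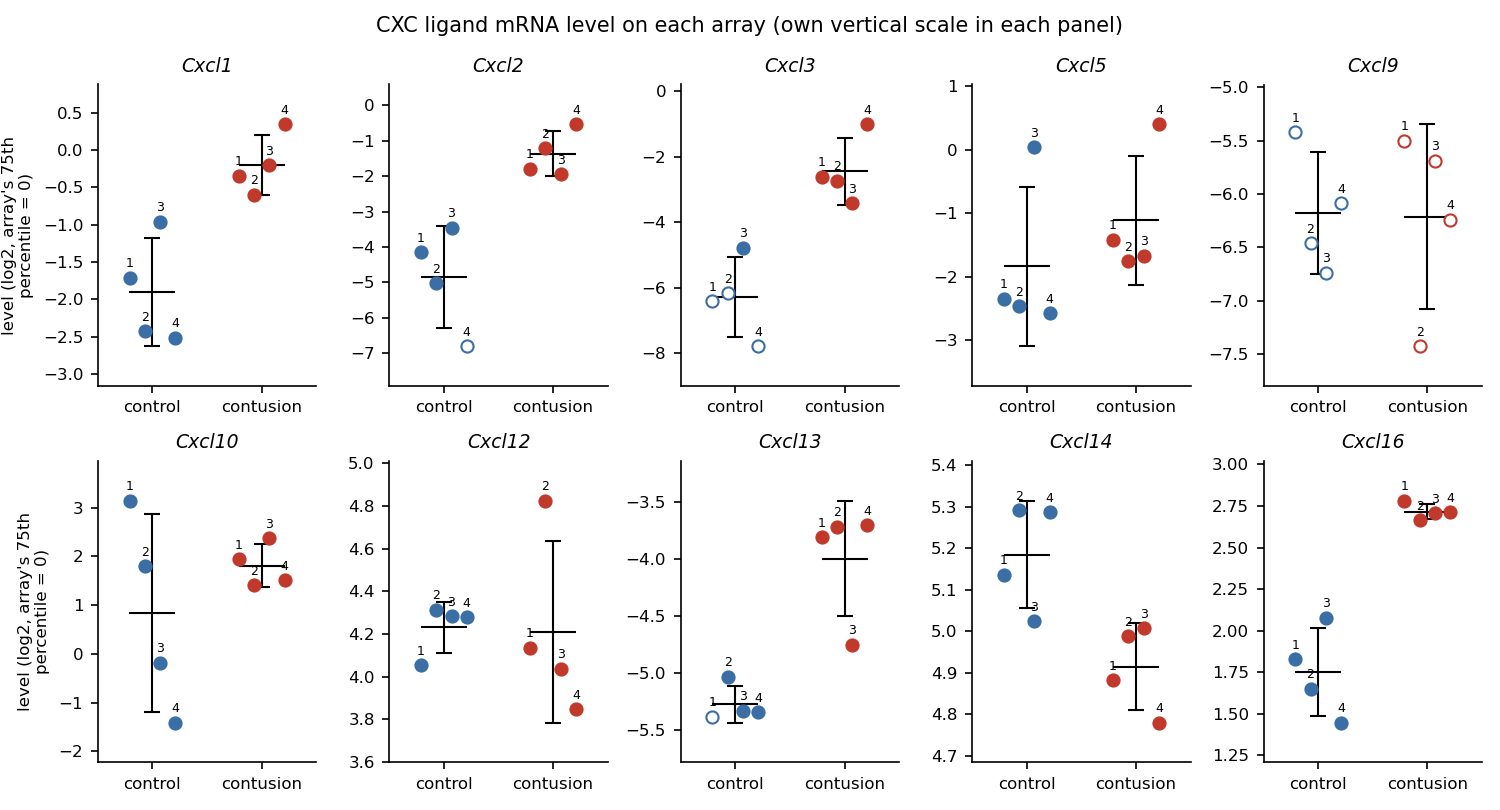
Level of the 10 CXC ligands on each array (vertical axis, log2, the array's 75th percentile at 0, own scale in each panel) for control and contusion replicates 1 to 4; bars are the mean and SD of 4 arrays, and hollow points were not well above background. Cxcl1, Cxcl2, Cxcl3, Cxcl13, Cxcl14 and Cxcl16 have groups that do not overlap, and both Cxcl9 groups are hollow throughout.

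Cxcl3, an ELR ligand for Cxcr2, was at background in most controls and measured in every contused cord. Its custom probe read -6.41, -6.16, -4.78 and -7.77 in control replicates 1 to 4, where only replicate 3 was well above background. Contusion replicates 1 to 4 read -2.62, -2.74, -3.42 and -1.02, all well above background. Every contusion array was above every control array. The difference was 3.83 ± 0.68 (adjusted p = 0.00285). On this scaling it was at least 7.18-fold when control arrays at background were set to the dimmest signal well above background on the array. This probe would have passed the filter on dim probes through the contusion arrays alone. The other Cxcl3 probe was at background on all 4 control arrays, -7.67 to -7.34, and well above it on 3 of 4 contusion arrays. The contusion arrays read -5.12 to -2.22, with replicate 3 at background, and lay above every control. This second probe was not tested, and no fold is given because arrays of both groups were at background.

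Cxcl2, also known as macrophage inflammatory protein 2, gave -4.15, -5.03, -3.45 and -6.80 on its custom probe in the control replicates and -1.79, -1.22, -1.94 and -0.54 in the contusion replicates. Control replicate 4 was not well above background, and the groups did not overlap. The difference was 3.49 ± 0.68, with a 95% interval from 1.93 to 5.04 (adjusted p = 0.00432). The means differed at least 8.98-fold on this scaling with that array at its bound. A second, catalogue probe did not show the same. It read -3.17, -6.89, -7.73 and -7.85 in controls and -6.13, -5.05, -5.24 and -4.67 after contusion, with only control replicate 1 and contusion replicates 2, 3 and 4 above background. Its difference was 1.14 ± 0.98 and was not called (adjusted p = 0.388, over 112196 probes). With that probe at background on 4 of the 8 arrays, the gap between the probes is not given as a measured value. The first 30 bases of each 60-base probe are shown because both are named for NM_009140 and share no run longer than 7 bases.
Cxcl2 custom probe, well above background on 7 arrays: ccttgcttagcaattgttttgtcatgcctt
Cxcl2 catalogue probe, chr5:91334534-91334593 in mm9, well above background on 4 arrays: atagttggaaggtgatacatttttaaacct

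Cxcl1, the keratinocyte chemoattractant KC of mouse, was well above background on all 8 arrays with both of its probes. The custom probe read -1.71, -2.43, -0.96 and -2.51 in control replicates and -0.34, -0.60, -0.21 and 0.34 in contusion replicates. The lowest contusion array stood above the highest control array, which was replicate 3. The difference was 1.70 ± 0.36, or 3.25-fold (adjusted p = 0.00616). The catalogue probe at chr5:91321845-91321904 (mm9) rose by 2.58 ± 0.63 (adjusted p = 0.0107 over probes), again without overlap.

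Cxcl5, the fourth ELR ligand and known from epithelia and platelets, was not called. Its levels were -2.35, -2.47, 0.036 and -2.58 in control replicates and -1.42, -1.76, -1.67 and 0.40 in contusion replicates. Control replicate 3 and contusion replicate 4 each lay far above the other 3 arrays of their group, and the groups overlapped through them. The difference was 0.73 ± 0.69, with a 95% interval from -0.86 to 2.31 (adjusted p = 0.449), an interval that holds both 0 and the difference of Cxcl1. The second probe gave 0.59 ± 0.71 (adjusted p = 0.543 over probes). Without control replicate 3 the difference was 1.35 (adjusted p = 0.0776), and without contusion replicate 4 it was 0.22 (adjusted p = 0.82).

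The 4 ELR genes took the same order across several arrays, as did some other genes and marker means given below. In all 4, replicate 3 was the highest control, replicate 4 the lowest control and replicate 4 the highest contusion array. Control SDs of Cxcl1, Cxcl2, Cxcl3 and Cxcl5 were 0.72, 1.45, 1.23 and 1.25, against a median of 0.14 over all mRNAs. Removing control replicates 1 and 3, whose neutrophil markers were high, gave differences of 2.27 for Cxcl1, 4.54 for Cxcl2 and 4.52 for Cxcl3. Replicate 3 was also the highest control for these genes. Leaving it out raises the differences in any case, so these values do not read neutrophil content. Neutrophil markers themselves averaged 0.12, 0.45, 1.88 and 1.55 in contusion replicates 1 to 4, so the groups overlapped, and 3 of the 12 markers were called higher. Among the markers not called, S100a9 differed by 0.54 ± 0.80 and the granule gene Mpo by 0.23 ± 0.72, both with groups that overlapped. Of the 3 called, Ly6g rose by 0.76 ± 0.13 (adjusted p = 0.00218), and Csf3r (1.22 ± 0.35) and Mmp8 (2.15 ± 0.61) were no longer called with the slide as a block. The part of neutrophil content in the ligand levels was not tested.

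**Figure D2:**
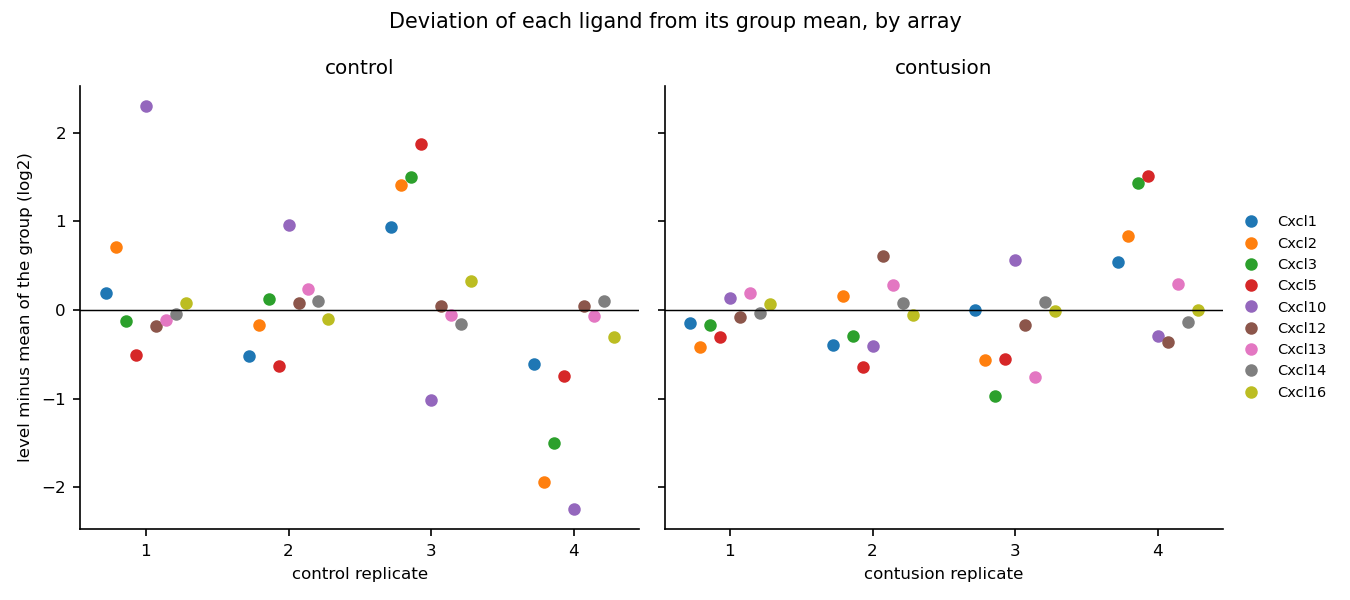
Level of each of the 9 tested ligands minus the mean of its group (vertical axis, log2) on control replicates 1 to 4 (left) and contusion replicates 1 to 4 (right). Cxcl1, Cxcl2, Cxcl3 and Cxcl5 lie above 0 together in control replicate 3 and contusion replicate 4, and Cxcl10 lies highest in control replicate 1.

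Normexp background correction with an offset of 50 and quantile scaling, which compresses dim probes, gave smaller differences: 1.10 for Cxcl2, 0.81 for Cxcl3 and 1.14 for Cxcl1. All were still called. The size of the change in these dim genes therefore depends on the scaling, and the direction was the same under every setting run.

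Cxcl9, the interferon-gamma-induced ligand of Cxcr3, was not well above background on any array with either probe. Its brighter probe read -6.74 to -5.42 in controls and -7.43 to -5.50 after contusion. It was not tested, and without the filter the difference was -0.037 ± 0.46 (adjusted p = 0.964). At this signal a difference was not detectable.

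Cxcl10, the interferon-inducible protein IP-10, was well above background on all 8 arrays and was the ligand that varied most among controls. Control replicates 1 to 4 read 3.14, 1.80, -0.18 and -1.41. Contusion replicates 1 to 4 read 1.94, 1.41, 2.37 and 1.51. The contusion levels lay close together and inside the much wider range of the controls, with control replicate 1 above every contusion array and control replicates 3 and 4 below. The difference was 0.97 ± 0.89, with a 95% interval from -1.06 to 3.01 (adjusted p = 0.429). Its control SD of 2.02 was larger than that of 99.9% of mRNAs. The sign differed between slides: the difference was 1.87 within the slide of control replicates 2, 3 and 4, and -1.37 within the slide of control replicate 1, where 1 control stands against 3 contusion arrays. With the slide as a block it was 0.25. Without control replicate 1 it was 1.74 (adjusted p = 0.0851), and without control replicate 4 it was 0.22 (adjusted p = 0.843). Leaving out 1 library thus moved the value up or down. The custom and catalogue probes of Cxcl10 carry the same 60 bases, beginning gctttgcattgtatatggaagaacttgtgt, and so repeat 1 measurement at 2 spots. The custom spot read 3.03, 1.78, -0.34 and -1.70 in controls, the same order and nearly the same values as the first spot.

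Interferon signalling genes were read beside them. Of 13 listed, Ifng and Ifnb1 did not pass the filter on dim probes and were not tested. Among the other 11, 6 rose and 5 were not called, with a median difference of 0.51. Over all mRNAs, 51.1% were called, 25.8% of them all higher. Ifnar2, a type I interferon receptor chain, rose by 0.81 ± 0.10 (adjusted p = 0.000475). The transcription factors Irf9 and Irf1 rose by 0.87 ± 0.17 and 0.79 ± 0.16 (adjusted p = 0.00498 and 0.00582). Cxcl11, the third ligand of Cxcr3, was not called (-0.12 ± 0.47, adjusted p = 0.861), with controls from -4.90 to -2.57 and contusion arrays from -3.90 to -3.32.

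Cxcl16 had the smallest spread among the contusion arrays of the 9 tested ligands, though not among the controls. Its custom probe read 1.83, 1.65, 2.08 and 1.45 in control replicates and 2.78, 2.67, 2.71 and 2.71 in contusion replicates. All 4 contusion arrays lay close together (SD 0.048) and above every control. The difference was 0.97 ± 0.13, or 1.95-fold (adjusted p = 0.000685), 1.06 within the first slide and 0.87 within the second. Both other probes were called as well, at 0.85 ± 0.15 and 1.39 ± 0.25 (adjusted p = 0.00244 and 0.00232 over probes). The probe with 1.39 is shown whole because it is the only one with a position in the files that spans more than its own length: its 60 bases map to chr11:70269521-70272262 in mm9, a span of 2742 bases and so across a splice junction.
Cxcl16 junction probe: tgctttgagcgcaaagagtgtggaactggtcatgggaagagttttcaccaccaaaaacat

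Cxcl16 is shed by the metalloproteases Adam10 and Adam17, and other proteases trim CXC ligands. Of 9 proteases tested, 5 rose and 1 fell (Mmp9, -0.56), against 25.8% of all mRNAs called higher and 25.3% lower. No protease was called lower without control replicates 1 and 3 or without contusion replicates 1 and 2. Adam17 rose by 0.85 ± 0.08 (adjusted p = 0.000179) and Adam10 by 0.59 ± 0.13 (adjusted p = 0.00813). Mmp14, which cleaves Cxcl12, rose by 1.24 ± 0.17 (adjusted p = 0.000819), and Mmp2, which does the same, by 0.93 ± 0.22 (adjusted p = 0.011). Mmp8, a collagenase of neutrophils, was 2.15 ± 0.61 higher (adjusted p = 0.0235) but not called with the slide as a block (0.0898). Dpp4, which truncates Cxcl10 and Cxcl12, was not called (-0.40 ± 0.21, adjusted p = 0.167).

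Cxcl13 was dim in every control. Its custom probe read -5.38, -5.03, -5.33 and -5.34 in control replicates, where replicate 1 was not well above background, and -3.81, -3.72, -4.75 and -3.70 in contusion replicates. Contusion replicate 3 was the lowest of its group and still above every control. The difference was 1.28 ± 0.23, with a 95% interval from 0.74 to 1.81 (adjusted p = 0.00318). The means differed at least 2.36-fold on this scaling with the dim control array at its bound. Under normexp with quantile scaling the difference was 0.18, still called, so its size rests on the scaling. The other probe was at background on all 4 controls and on contusion replicates 3 and 4, and was not tested. It read -7.78 to -6.44 in controls and -6.46 to -4.40 after contusion, so the groups overlapped. No fold is given, since arrays of both groups were at background. Markers of B cells, which carry the receptor of Cxcl13, were called higher in 1 of 4 tested (Cd79b, not called with the slide as a block, adjusted p = 0.0997, or without any 1 of control replicates 2 and 4 and contusion replicates 1, 3 and 4). Their median difference was -0.14, with mean levels of -3.10 to -2.33 in controls and -2.75 to -2.44 after contusion.

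Cxcl12, also called stromal cell-derived factor 1, was read by 3 probes for 2 RefSeq transcripts. The brightest probe, for NM_001012477, read 4.05, 4.31, 4.28 and 4.28 in control replicates and 4.13, 4.82, 4.04 and 3.85 in contusion replicates. The contusion arrays lay on both sides of the controls, and the difference was -0.021 ± 0.20 with a 95% interval from -0.47 to 0.43 (adjusted p = 0.944). The custom probe for the same transcript gave 0.055 ± 0.19 (adjusted p = 0.84 over probes). The probe for NM_021704 read -0.41, -0.50, 0.59 and -0.23 in controls and 0.90, 0.49, 0.44 and 0.12 after contusion. Its difference was 0.63 ± 0.26 and was not called (adjusted p = 0.0839 over probes), with control replicate 3 inside the contusion range. Within an array, the NM_021704 probe relative to the brightest probe changed by 0.65 (exact two-sided permutation p = 0.0857, 0.19 adjusted over 5 tests). The probes are shown because they read different transcript ends.
Cxcl12 NM_001012477, chr6:117131227-117131286 in mm9: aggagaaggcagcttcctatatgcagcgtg
Cxcl12 NM_001012477, custom, no position in the files: ccatttctactttgaagtcattatcgatga
Cxcl12 NM_021704, chr6:117124474-117124533 in mm9: gaattaatcataaacggaagtttaaatgag

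Cxcl14 was lower after contusion, by a small amount. Its custom probe read 5.14, 5.29, 5.02 and 5.29 in control replicates and 4.88, 4.99, 5.01 and 4.78 in contusion replicates. The highest contusion array and the lowest control array were nearly equal, and the groups did not overlap. The difference was -0.27 ± 0.09 (adjusted p = 0.04), and the second probe gave -0.31 ± 0.10 (adjusted p = 0.0354 over probes) with groups that overlapped. The call did not hold with the slide as a block (adjusted p = 0.0946), and it held in 1 of 8 fits that left out 1 array, the one without control replicate 3. A circular RNA named by the array as chr13:56292461-56296354 on the minus strand, inside the Cxcl14 gene by GRCm38 positions, went the other way. It read 2.38, 2.42, 2.42 and 2.47 in control replicates and 2.73, 2.72, 2.95 and 2.73 in contusion replicates, a difference of 0.36 ± 0.07 (adjusted p = 0.00485). Relative to the Cxcl14 mRNA on the same array it changed by 0.63, with no overlap of the groups (exact two-sided permutation p = 0.0286, the smallest possible with 4 against 4, and 0.143 adjusted over 5 tests). A circular RNA inside Cxcl5 by the same positions was not called (0.085 ± 0.21, adjusted p = 0.785). The build of the circular RNA positions was not given in the sources used here. Their place inside Cxcl14 and Cxcl5 holds only if that build is GRCm38. In mm9 the catalogue Cxcl14 mRNA probe lies at chr13:56390078-56390137, outside the span of the circular RNA.

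**Figure D3:**
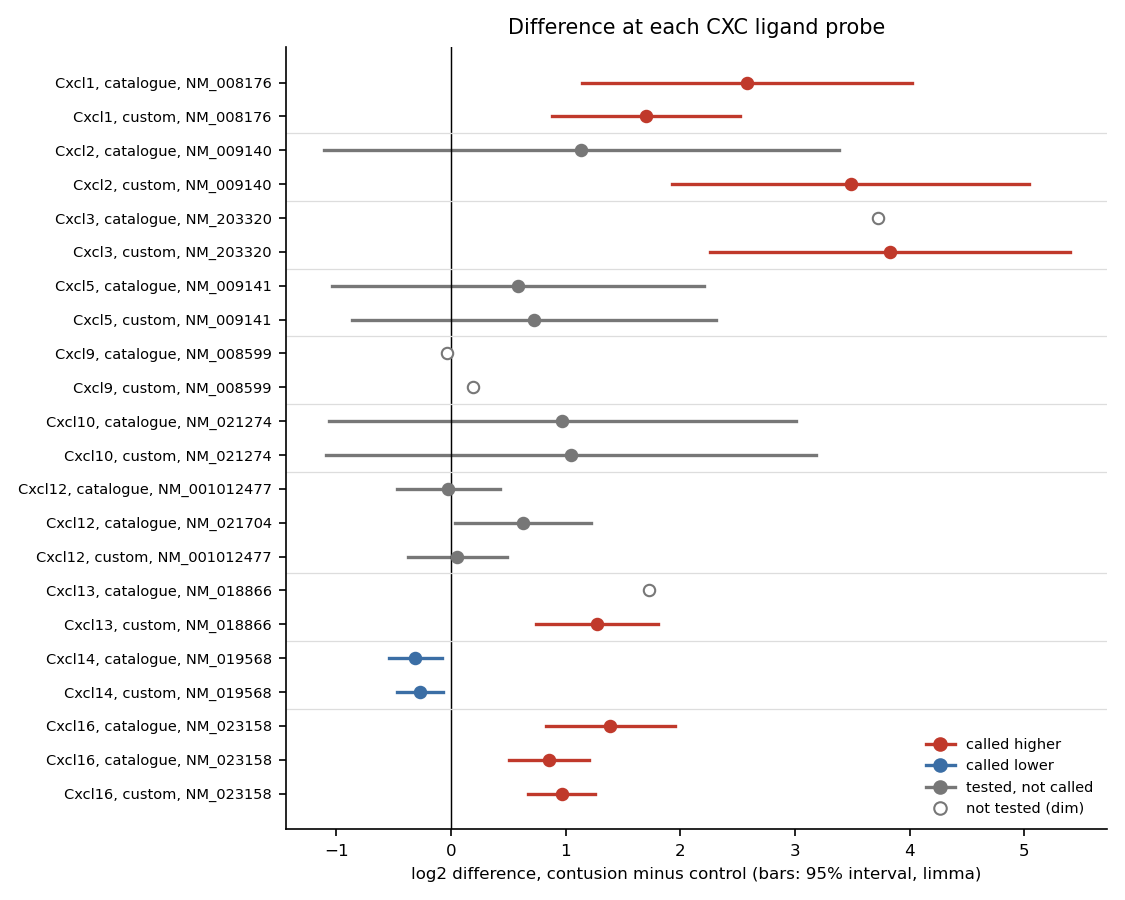
Log2 difference, contusion minus control (horizontal axis), of each of the 22 CXC ligand probes with its 95% interval from limma; each row gives the gene, the probe type and the RefSeq accession. Red probes were called higher (8), blue lower (2), grey tested and not called (8), and hollow points were too dim to be tested.

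All 22 probes were accounted for: 18 passed the filter, 8 were called higher, 2 lower and 8 not, and 53.6% of 41078 mRNA probes tested were called, 26.5% higher and 27.1% lower. No run longer than 10 bases was shared between probes of different ligands, Cxcl5 and Cxcl16 having the longest. Where a gene had 2 called probes, both had the same sign. Among genes with more than 1 tested probe, Cxcl2 was the gene whose probes differed in their call.

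Receptors of these ligands changed unequally. Of 8 measured, 4 rose, 1 fell and 3 were not called, with a median difference of 0.37. Over all mRNAs, 51.1% were called, 25.8% higher and 25.3% lower. Cxcr4, the receptor of Cxcl12, read -0.92, -0.95, -0.86 and -1.51 in control replicates and 0.94, 0.68, 0.50 and 0.91 after contusion. The groups did not overlap, and the difference was 1.82 ± 0.16, or 3.52-fold (adjusted p = 0.000181). Cxcr3, the receptor of Cxcl9 and Cxcl10, rose from a range of -2.70 to -2.36 to one of -1.87 to -1.57 (0.86 ± 0.10, adjusted p = 0.000454). Cxcr6, the receptor of Cxcl16, rose by 0.52 ± 0.09 (adjusted p = 0.00327).

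Cxcr2, the neutrophil receptor of the ELR ligands, was dim. It read -5.20, -6.66, -4.06 and -7.80 in control replicates, only 1 of which was well above background, and -3.82, -3.65, -3.89 and -2.80 after contusion. The difference was 2.39 ± 0.73, with a 95% interval from 0.71 to 4.08 (adjusted p = 0.0323), and 0.31 under normexp with quantile scaling. The means differed at least 2.97-fold on the main scaling with dim control arrays at their bound. The call was lost with the slide as a block (adjusted p = 0.112) and in 6 of the 8 fits that left out 1 array, those without control replicate 2 or 4 or any contusion replicate, where adjusted p reached 0.0835. Cxcr1, the other ELR receptor, was not called (0.15 ± 0.10, adjusted p = 0.289). Cxcr5, the receptor of Cxcl13, was not called either (0.13 ± 0.12, adjusted p = 0.421). The atypical receptors, which bind chemokines without G protein signalling, differed in their calls. Ackr1, which binds ELR ligands on venules and red cells, fell by 0.25 on the log2 scale (SE 0.06, adjusted p = 0.0102), from 5.14 to 5.20 in controls to 4.85 to 4.98 after contusion. That call was lost without control replicates 1 and 3 (adjusted p = 0.0521) and with the replicate number as a block (0.0538). Ackr3, the scavenger of Cxcl12, was 0.23 ± 0.17 higher and not called (adjusted p = 0.32).

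Among the 5 CXC ligands outside the 10, Cxcl15 and Cxcl17 did not pass the filter on dim probes and were not tested. Pf4, a chemokine of platelets and macrophages, read 2.35, 1.61, 2.69 and 2.32 in control replicates and 5.32, 5.16, 4.83 and 5.69 after contusion. It rose by 3.01 ± 0.25, or 8.05-fold (adjusted p = 0.00015). Ppbp, a chemokine precursor of platelets, was 0.53 ± 0.67 higher and not called (adjusted p = 0.573), with contusion replicate 2 at 2.33 and the other contusion arrays from -0.47 to -0.15. Of 13 receptor signalling genes, 6 rose and 3 fell, against 25.8% of all mRNAs called higher and 25.3% lower. Rgs1, which damps G protein signalling in leukocytes, rose by 3.67 ± 0.31, the GTPase Rac2 by 2.22 ± 0.38 and the kinase subunit Pik3cg by 1.41 ± 0.21 (adjusted p = 0.000157, 0.00239 and 0.00119).

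Interleukin 1, tumour necrosis factor, interleukin 17 and NF-kappa-B signalling induce ELR ligands. Of 18 genes of these pathways, 16 rose and none fell, against 25.8% of all mRNAs called higher. Il1a and Il1rap were not called, and the median difference was 1.16. The list holds inhibitors as well as inducers, and Il1rn, Nfkbia, Tnfaip3, Zc3h12a and Zfp36 were inhibitors among those that rose. Tnf read -2.27, -3.39, -2.40 and -3.76 in control replicates and 0.48, 0.44, 0.61 and 0.56 after contusion. It rose by 3.47 ± 0.32, or 11.1-fold (adjusted p = 0.000188). Il1rn, the interleukin 1 receptor antagonist, rose by 4.19 ± 0.71 (95% interval from 2.56 to 5.81, adjusted p = 0.0022). With 1 control array at background, the means differed at least 14.5-fold on the main scaling. Under normexp with quantile scaling Il1rn differed by 1.64, Tnf by 2.15 and Il1b by 1.29. Il1b read -2.13, -2.57, -0.88 and -3.85 in control replicates and -0.27, -0.49, -0.35 and 0.39 after contusion. Its difference was 2.18 ± 0.55 (adjusted p = 0.0147), and it was not called with the slide as a block (0.0515). In Il1b, as in the 4 ELR ligands, replicate 3 was the highest control, replicate 4 the lowest control and replicate 4 the highest contusion array. Cxcr2, the mean of the 18 genes and the mean of the microglial markers below took the same order. The order is therefore not particular to Il1b and the ELR ligands.

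**Figure D4:**
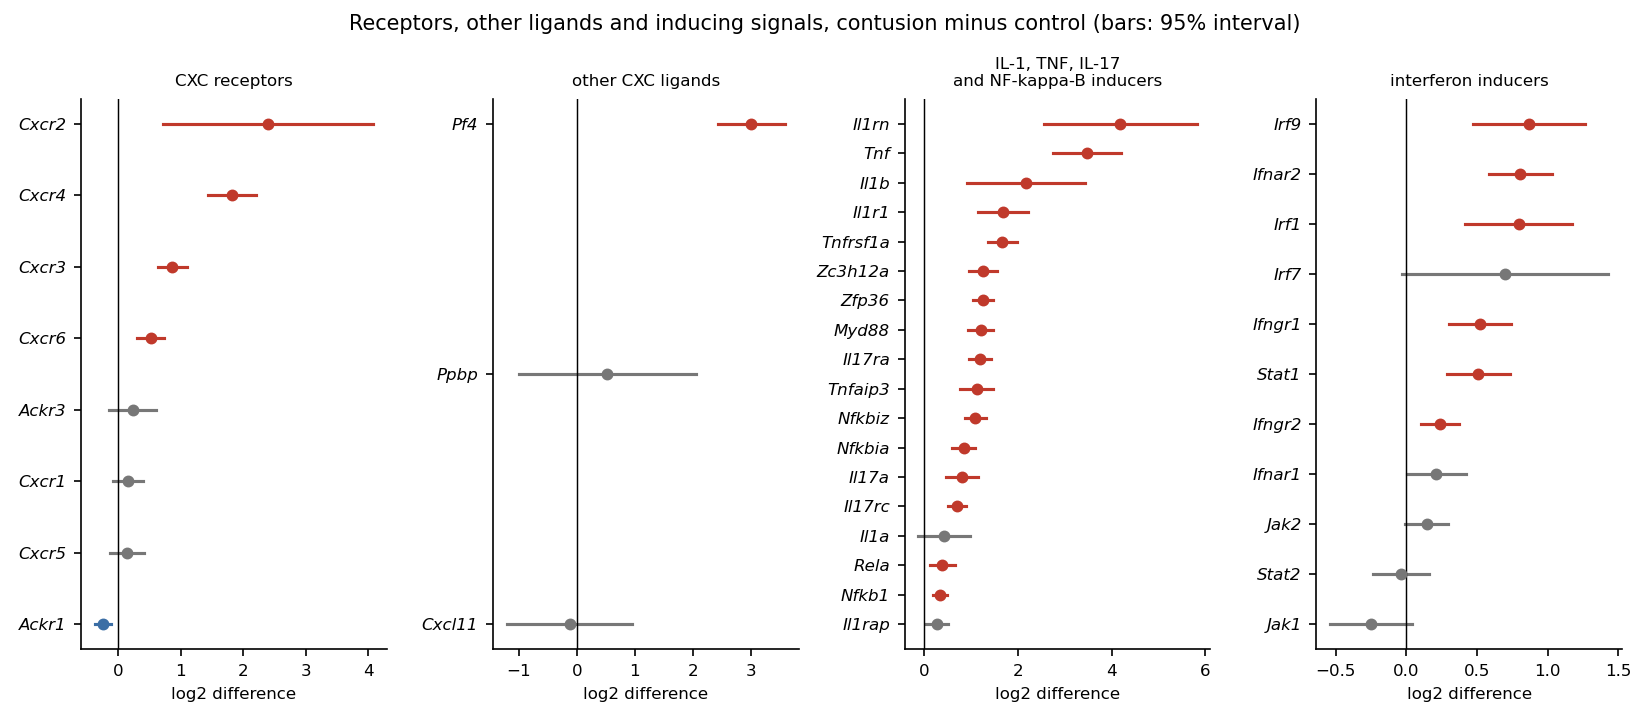
Log2 difference, contusion minus control (horizontal axis, own scale in each panel), with 95% intervals from limma for CXC receptors, other CXC ligands, and genes of the interleukin 1, tumour necrosis factor and interleukin 17 and of the interferon pathways. Red genes were called higher, blue lower and grey not called; Tnf, Il1rn and Pf4 stand furthest to the right.

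Markers of some of the cells that make or receive these ligands moved with the groups, and their part in the ligand differences was not tested. Of all mRNAs, 25.3% were called lower and 25.8% higher. The counts of markers called higher for neutrophils, B cells, fibroblasts, and T and NK cells lay near that share of higher calls. All 12 monocyte and macrophage markers rose, with a median of 2.47, and their mean level was 0.76 to 2.34 in controls and 4.21 to 4.38 after contusion. Control replicate 4, the lowest control for Cxcl1, Cxcl2, Cxcl3, Cxcl5, Cxcl10 and Cxcl16, was also the lowest in this mean. Msr1 rose by 5.15 ± 0.57, Gpnmb by 5.02 ± 0.72 and Cd68 by 3.48 ± 0.40 (adjusted p = 0.000335, 0.00101 and 0.000386). Of 8 microglial markers 5 rose, among them Cx3cr1 (1.17 ± 0.15) and Olfml3 (1.95 ± 0.24), with means of 2.50 to 3.22 in controls and 3.57 to 3.87 after contusion. Of 8 endothelial markers 7 rose, among them Vwf, Cdh5 (1.45 ± 0.16) and Pecam1 (1.38 ± 0.16). Of 6 pericyte and smooth muscle markers 3 rose, led by Tagln (2.31 ± 0.29), and 2 of 9 fibroblast and meningeal markers, Lum (1.81 ± 0.51) and Pdgfra (0.47 ± 0.08). The fibroblast count was 6 without control replicate 3 and 1 without control replicate 1, contusion replicate 1 or contusion replicate 3, where Lum was not called. The pericyte count was 5 without control replicate 3. Of 8 T and NK cell markers 2 rose, Gzma (1.17 ± 0.30) and Cd2 (0.97 ± 0.19).

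Astrocyte markers split, with 3 higher, led by Aldh1l1 (0.88 ± 0.08), and 3 lower, led by Aldoc (-0.69 ± 0.09) and Slc1a2 (-0.67 ± 0.09), out of 8. All 8 neuronal markers fell, among them Rbfox3 (-0.97 ± 0.09) and Syt1 (-0.89 ± 0.07), with means of 5.89 to 6.05 in controls and 5.09 to 5.32 after contusion. Cxcl14, the 1 lower ligand, fell by 0.27 on the same scale. Of 6 oligodendrocyte markers 1 fell, Cnp (-0.23 ± 0.07), which was not called with the slide as a block. No skeletal muscle marker of 9 was called. Of 6 keratinocyte markers, from an epithelium that also makes Cxcl14, 3 fell and 1 rose (Trp63, not called without contusion replicate 2, 3 or 4), and their mean level was 0.30 to 0.36 in controls and -0.028 to 0.095 after contusion.

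The mRNAs whose levels followed each ligand most closely were found after each group's mean was subtracted, by Pearson's r over the 8 arrays among 18180 mRNAs. These are the highest values of many, with no test. The deviations were not scaled within a group, so r leans on the group or array that varied most. For Cxcl16 the SD was 0.27 in controls and 0.048 after contusion, and for Cxcl10 it was 2.02 and 0.44. Mmp14 (r = 0.985) and Ddit4l (0.986) were nearest to Cxcl1, Ggta1 (0.994) and Sbno2 (0.994) to Cxcl2, and Prnd (0.98) and Serpinb6a (0.956) to Cxcl3. Il2rg (0.978), the shared chain of several cytokine receptors, and Pcdh12 (0.974) were nearest to Cxcl5. Wfdc17 (0.998) and Pdia5 (0.992) followed Cxcl16, and Ndufb6 (0.99) and Pla2g4c (0.978) followed Cxcl14. Mageb2 (0.992) and Klk9 (0.982) followed Cxcl10, Slc6a4 (0.985) and Akr1b7 (0.974) followed Cxcl12, and Olfr1230 (0.964) and Cyp51 (0.954) followed Cxcl13. The Cxcl12 values rest largely on contusion replicate 2. There Slc6a4 read -1.29, against -3.19 to -2.84 in the other contusion arrays, and Akr1b7 -2.12, against -4.37 to -3.68. Wfdc17, a macrophage gene, read 1.55, 0.74, 2.54 and -0.24 in control replicates, the same order as Cxcl16 there, and 4.34 to 4.79 after contusion.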

How the data were processed

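Each array was 1 Agilent 1-colour (Cy3) array per mouse. RNA came from a miRNeasy purification and was labelled by a whole-transcript Agilent kit, per the labels' protocols. The deposited intensity values were, per the file headers, background-subtracted in Agilent's Feature Extraction software without scaling between arrays. The submitters' processing notes name version 10.7 of it and limma. The deposited 0 or 1 flags for signal well above background and for outliers (other values, per the file headers) were used as given. The authors' series table holds deposited log2 values, used as an alternative only. Its column medians were 5.4, its values followed the intensities with a Spearman correlation of 1, and it was not centred per gene.

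Levels were log2 intensity minus the array's 75th percentile. A probe was tested if at least 4 of 8 arrays had it well above background, and each gene was read from its probe of highest mean. The test was limma 3.58.1 in R 4.3.3, with group as the only term (two-sided). Adjustment was over all features, or over all probes where a probe is tested. The procedure was tested on simulated data. A fold given as "at least" sets arrays of the dimmer group to the dimmest signal well above background on that array where that is higher. It is a lower limit on the main scaling only. Normexp with quantile scaling gave smaller values for Cxcl2, Cxcl3, Cxcl13, Cxcr2 and Il1rn. Array coordinates are mm9 per the file headers. The members, gene lists and motifs were chosen with earlier results of these data known. Named genes were all members, all CXC receptors and other CXC ligands, up to 3 called genes per list with the largest differences, and the 2 mRNAs most like each member; the other list genes given were chosen after their values were seen. Lists of pathway and cell type genes were counted. Alternatives were other scalings, the authors' table, other filters on dim probes, the mean of a gene's probes, the slide or the replicate number as a block, and leaving out arrays. The number of arrays limits the precision.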

Additional observations from a re-analysis of the deposited data

Results flagged for a closer look

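Of 40 groups of 4 arrays checked among the ligands, the other CXC ligands and the receptors, 9 held a single array far from the other 3. Chance alone gives about 1 in 20. In Cxcl5 control replicate 3 was at 0.036, against -2.58 to -2.35 in the other controls, and contusion replicate 4 was at 0.40, against -1.76 to -1.42. In Cxcl12 control replicate 1 was low at 4.05. In Cxcl13 control replicate 2 was high at -5.03 and contusion replicate 3 low at -4.75. Ppbp was high in contusion replicate 2, at 2.33. Cxcr3 was low in contusion replicate 3, at -1.87. Cxcr4 was low in control replicate 4, at -1.51. Ackr1 was high in control replicate 1 by a small gap, at 5.20 against 5.14 to 5.15 in the other controls. None of these arrays was left out of the values above.

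The circular RNA placed inside Cxcl14 by GRCm38 positions belongs to a class of probe outside the mRNA comparison. Its level was 0.36 higher after contusion while the Cxcl14 mRNA was 0.27 lower. Its own build was not given, so its place in Cxcl14 is not settled.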

How the results depend on the processing

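The 5 ligands called higher (Cxcl1, Cxcl2, Cxcl3, Cxcl13 and Cxcl16) were called in the same direction under every alternative that gave them a value. Their count was 2 when probes had to be well above background on all 8 arrays, since Cxcl2, Cxcl3 and Cxcl13 were then not tested, and 5 in all 8 fits that left out 1 array. The count of lower ligands was 0 with no filter on dim probes, with the slide as a block, with the replicate block, and without contusion replicates 1 and 2, and 0 to 1 when 1 array was left out. Cxcl14 was -0.27 (adjusted p = 0.0685) without the filter, -0.26 (0.0946) with the slide as a block, -0.27 (0.105) with the replicate block and -0.29 (0.12) without contusion replicates 1 and 2, and ranged from -0.32 to -0.23 when 1 array was left out. Cxcl12, never called, turned positive under normexp with quantile scaling (0.063), with the mean of a gene's probes (0.22) and with the slide as a block (0.013), as did its brightest probe, and ranged from -0.23 to 0.10 when 1 array was left out. Its custom probe turned negative under normexp with quantile scaling (-0.0045) and ranged from -0.14 to 0.16 when 1 array was left out. The catalogue Cxcl2 probe was -0.23 with the slide as a block. Cxcl11 was 0.74 without control replicates 1 and 3, and Ppbp -0.15 without contusion replicates 1 and 2; both also changed sign when 1 array was left out, Cxcl11 from -0.56 to 0.21 and Ppbp from -0.13 to 0.81. The cause of these changes was not tested. Called mRNAs numbered 7926 to 9609 when 1 array was left out. Deviations of same-numbered control and contusion arrays gave r from -0.24 to 0.06, against -0.22 to 0.22 for other pairs. So few values cannot show whether arrays were matched by number. The replicate block gave 7460 called mRNAs against 9306 and 1.70 for Cxcl1. Dim probes limit what could be seen for Cxcl3, Cxcl9 and Cxcl13. Alternatives for the list genes were added after seeing the data.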
